A study of Mus musculus with 9 samples.

Results

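The midbrain dopaminergic transcription factors are described here as 9 genes: Nr4a2, Pitx3, Lmx1a, Lmx1b, Foxa1, Foxa2, En1, En2 and Pbx3. They were found by symbol in the gene column of the deposited comparison tables and joined by Ensembl identifier to the read counts of each library. All 9 of 9 were found among 47729 genes, all had counts in every library, and all were among the 17988 genes expressed highly enough to be tested. The members were selected on results of these same libraries, namely their transcript levels and differences between the Dot1l genotypes, so the values below describe where the members stand and do not test them as a group.

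The libraries are RNA-seq of midbrain dopamine (DA) neurons from C57/Bl6 mouse embryos at E15.75 (counted in embryonic days), sorted by flow cytometry for a yellow fluorescent reporter. Every embryo, controls included, carried Cre recombinase in 1 copy of the Pitx3 locus (Pitx3-Cre/+) and a Rosa reporter that Cre switches on by removing a stop cassette. The groups differed in floxed alleles of Dot1l, which encodes the methyltransferase of lysine 79 on histone H3. There were 3 libraries of Dot1l(+/+) with 0 floxed alleles, 3 of Dot1l(fl/+) with 1 and 2 of Dot1l(fl/fl) with 2, of 9 samples that the labels name; Dot1l(fl/fl) 3 was not analysed here. Each library was a pool of embryos per the study's methods, so the spread between libraries is a spread between pools. Cre is active only where Pitx3 is, and because it sits in the Pitx3 locus, the Pitx3 count was read in cells in which 1 of the alleles carries Cre in all 3 groups.

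These 9 genes form the regulatory core of the midbrain DA neuron. The forkhead factors FOXA1 and FOXA2 and the LIM homeodomain factors LMX1A and LMX1B act in floor plate progenitors and stay on in the neurons that leave the cell cycle. EN1 and EN2, the Engrailed homeodomain proteins, mark the midbrain and anterior hindbrain and are needed for the survival of DA neurons. NR4A2 (also called NURR1), an orphan nuclear receptor, and PITX3, a paired-like homeodomain factor, switch on the genes for making, packing and taking up dopamine. PBX3 is a TALE homeodomain protein, a class that binds DNA together with other homeodomain proteins.

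The checks of the libraries touch each result below. Library totals ran from 13616922 to 43674673 counts, with the libraries labelled Dot1l(fl/fl) the shallowest. The least counted member, Foxa2, still had 1777 counts in the shallowest library, a counting error of 2.37%. Dot1l itself was at 105.2, 84.6 and 94.6 CPM (each count relative to its TMM-scaled library total) in Dot1l(+/+), at 75.5, 65.6 and 76.2 in Dot1l(fl/+), and at 64.9 and 99.0 in those labelled Dot1l(fl/fl) 1 and 2. The second of these lies inside the control range, so differences of the members from Dot1l(+/+), and the other values that turn on 1 library, are also given with each of its libraries left out. Only 1 exon is floxed, and the deposited values are per gene. All 10 markers of midbrain DA neurons were detected in every library, and markers of other cells are given after the members.

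In the control neurons the members ranked among the most abundant transcripts. Levels of different genes were compared as CPM per kilobase of annotated exon. On this scale Nr4a2 stood at 174.9 ± 7.0 (SD, n = 3) and En1 at 173.1 ± 4.5, followed by Pitx3 at 142.2 ± 16.7 and En2 at 125.9 ± 7.2. Foxa1 was intermediate at 90.3 ± 4.0. Lmx1a at 72.3 ± 8.3, Pbx3 at 67.8 ± 2.4, Foxa2 at 62.8 ± 0.9 and Lmx1b at 61.2 ± 7.6 closed the order. Each lay between the 95.2 and the 98.8 percentile of all genes tested. The order held only in part against the spread of the control libraries: Nr4a2 and En1, Pitx3 and En2, Lmx1a and Pbx3, and Foxa2 and Lmx1b overlapped as neighbours, while Foxa1 was the fifth member in all 8 libraries. Nr4a2 was above En1 in 2 of the 8 libraries.

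3 pairs of members are paralogues, and a count can be split between paralogues where reads fit both. The longest stretch of identical bases between the coding sequences is given as a description. It does not settle whether the paralogue counts are separate readouts. Untranslated and near-identical stretches were not compared, and the read length is not stated here. The stretches of the Lmx1 and Engrailed pairs are from GENCODE transcripts on GRCm38, written 5′ to 3′.
Lmx1a and Lmx1b: aagatgaagaagctggcccgg
En1 and En2: ttcatcgataacatcct
The longest shared stretch was 21 bases in the Lmx1 pair, 38 in the Foxa pair and 17 in the Engrailed pair. Among other genes, only Elovl3, on the strand opposite to Pitx3, overlapped the exons of a member, over 10 bases or 0.66% of the Pitx3 exons.

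**Figure D1:**
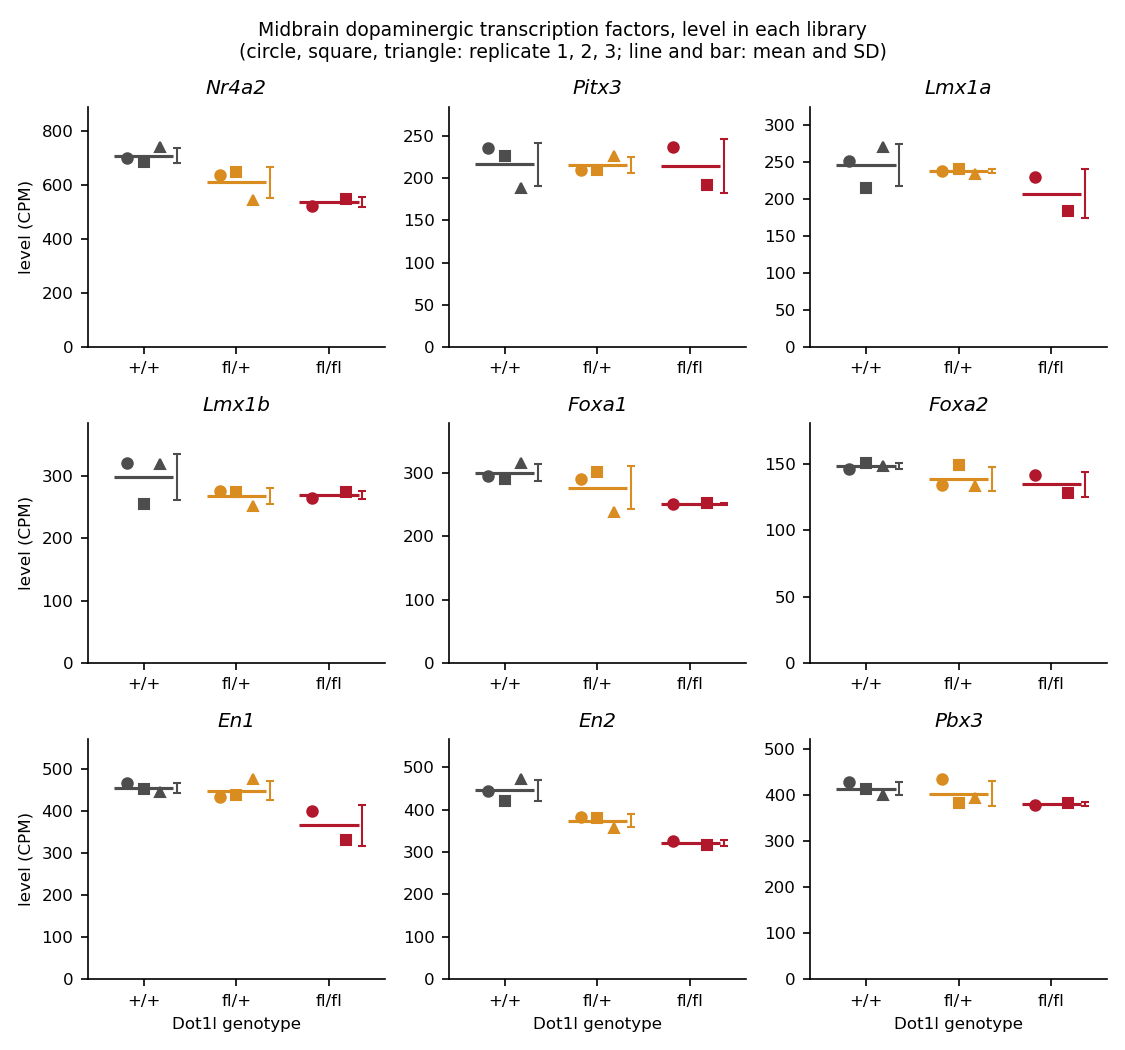
Level of each transcription factor in every library, in CPM on axes that start at 0, by Dot1l genotype, with symbols for replicate 1, 2 and 3, a line for the mean and a bar for the SD. The En2 and Nr4a2 points of Dot1l(fl/+) and Dot1l(fl/fl) all lie below those of Dot1l(+/+), while the Pitx3 points of the 3 genotypes overlap.

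The question that the genotypes put to these genes is whether the identity programme of the DA neuron keeps its transcript levels when Dot1l is floxed. Nr4a2 (ENSMUSG00000026826, chr2:57106830-57124003, minus strand, GRCm38) stood at 700.0, 687.6 and 741.8 CPM in Dot1l(+/+), 638.4, 649.4 and 543.1 in Dot1l(fl/+), and 523.8 and 549.1 in those labelled Dot1l(fl/fl). All 5 libraries with a floxed allele were below the lowest control. The log2 difference of Dot1l(fl/fl) from Dot1l(+/+) was -0.40 ± 0.09 (SE, edgeR adjusted p = 0.16), or -24.4% with a 95% interval from -33.8% to -13.8%. It was -0.37 with the library labelled Dot1l(fl/fl) 1 left out and -0.44 with the library labelled Dot1l(fl/fl) 2 left out. By size of p Nr4a2 ranked 23 of the 17988 genes, and still did not pass the threshold of 0.05 after adjustment. In sorted bulk RNA, fewer cells that express a gene and less RNA per cell cannot be told apart, here and for every member.

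Pitx3 (ENSMUSG00000025229, chr19:46135685-46148326, minus strand), the partner of Nr4a2 in the activation of the dopamine genes and the locus of the Cre allele, stayed within its own spread. It was at 236.1, 226.7 and 188.0 CPM in Dot1l(+/+), 210.4, 209.6 and 226.7 in Dot1l(fl/+), and 237.4 and 192.3 in those labelled Dot1l(fl/fl). The 3 genotypes overlap, with 1 of the libraries labelled Dot1l(fl/fl) the highest of all 8 and the other near the lowest control. The log2 difference of Dot1l(fl/fl) from Dot1l(+/+) was -0.01 ± 0.12 (edgeR adjusted p = 0.992), and the 95% interval ran from -16.1% to 17.0%. Its sign turned with the library left out, from -0.17 with the library labelled Dot1l(fl/fl) 1 left out to 0.13 with the library labelled Dot1l(fl/fl) 2 left out, and to 0.05 and 0.02 without Dot1l(+/+) 1 and 2. Within a library the ratio of Nr4a2 to Pitx3, both per kilobase, was 1.11, 1.14 and 1.48 in Dot1l(+/+), 1.14, 1.16 and 0.901 in Dot1l(fl/+), and 0.83 and 1.07 in those labelled Dot1l(fl/fl). Nr4a2 was thus above Pitx3 in each control library and in 6 of the 8 libraries.

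The LIM homeodomain factors, which specify the DA progenitor domain and later support DA neuron identity, had smaller differences. Lmx1a (ENSMUSG00000026686, chr1:167689237-167848741, plus strand) was at 251.7, 215.1 and 270.2 CPM in Dot1l(+/+), 237.7, 240.6 and 234.2 in Dot1l(fl/+), and 230.1 and 183.2 in those labelled Dot1l(fl/fl). Only the last of these lies below all control libraries. The log2 difference of Dot1l(fl/fl) from Dot1l(+/+) was -0.25 ± 0.12 (edgeR adjusted p = 0.512), and it rested mostly on 1 library: it was -0.42 with the library labelled Dot1l(fl/fl) 1 left out and -0.095 with the library labelled Dot1l(fl/fl) 2 left out. Lmx1b (ENSMUSG00000038765, chr2:33560965-33640511, minus strand) was at 320.9, 255.9 and 319.4 CPM in Dot1l(+/+), 276.9, 274.7 and 252.6 in Dot1l(fl/+), and 265.5 and 274.7 in those labelled Dot1l(fl/fl). One control library, Dot1l(+/+) 2, was as low as the floxed libraries, so the groups overlap, and the log2 difference was -0.15 ± 0.11 (edgeR adjusted p = 0.738). Leaving out that library took it to -0.24, while leaving out Dot1l(+/+) 1 or 3 took it to -0.093 or -0.094, and it moved less, to -0.12 and -0.17, when library 1 or 2 labelled Dot1l(fl/fl) was dropped. Per kilobase, Lmx1b stood at 0.846 ± 0.036 of Lmx1a in Dot1l(+/+) and at 0.785 ± 0.031 in Dot1l(fl/+), while the libraries labelled Dot1l(fl/fl) gave 0.803 and 1.04.

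The forkhead factors are the members that act earliest, and they are thought to open chromatin for other factors at the genes they bind. Foxa1 (ENSMUSG00000035451, chr12:57540628-57546916, minus strand) was at 295.5, 290.4 and 315.6 CPM in Dot1l(+/+), 290.4, 301.5 and 238.9 in Dot1l(fl/+), and 250.3 and 252.0 in those labelled Dot1l(fl/fl). The libraries labelled Dot1l(fl/fl) were nearly equal and below every control library, and the library Dot1l(fl/+) 3 was lower still. The log2 difference of Dot1l(fl/fl) from Dot1l(+/+) was -0.26 ± 0.11 (edgeR adjusted p = 0.443), and it was -0.26 when either of the Dot1l(fl/fl) libraries was dropped. Foxa2 (ENSMUSG00000037025, chr2:148042877-148046969, minus strand) was the least counted member, at 146.5, 150.8 and 149.0 CPM in Dot1l(+/+), 134.0, 149.3 and 133.4 in Dot1l(fl/+), and 141.6 and 127.9 in those labelled Dot1l(fl/fl). The control values of Foxa2 were the tightest of the set (coefficient of variation 1.5%), so that its libraries labelled Dot1l(fl/fl) lay below them although the log2 difference was only -0.14 ± 0.11 (edgeR adjusted p = 0.753). That difference was -0.22 with the library labelled Dot1l(fl/fl) 1 left out and -0.072 with the library labelled Dot1l(fl/fl) 2 left out. Foxa2 stood at 0.696 ± 0.033 of Foxa1 per kilobase in Dot1l(+/+), at 0.709 ± 0.069 in Dot1l(fl/+), and at 0.794 and 0.712 in those labelled Dot1l(fl/fl), values that overlap between all 3 genotypes.

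The Engrailed genes held the largest difference of the 9. En2 (ENSMUSG00000039095, chr5:28165694-28172166, plus strand) was at 444.4, 421.0 and 471.7 CPM in Dot1l(+/+), 384.0, 381.5 and 357.7 in Dot1l(fl/+), and 326.7 and 316.1 in those labelled Dot1l(fl/fl). The 3 genotypes did not overlap at all, with Dot1l(fl/+) between the other two. The log2 difference of Dot1l(fl/fl) from Dot1l(+/+) was -0.47 ± 0.09 (edgeR adjusted p = 0.114, rank 6 of the 17988 genes by p), or -27.9% with a 95% interval from -36.9% to -17.6%. It was -0.50 with the library labelled Dot1l(fl/fl) 1 left out and -0.45 with 2 left out. Without Dot1l(+/+) 2 it was -0.51 and passed the threshold (edgeR adjusted p = 0.0287).

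En1 (ENSMUSG00000058665, chr1:120602418-120607992, plus strand), which with En2 protects DA neurons, was at 467.3, 450.9 and 444.7 CPM in Dot1l(+/+), 432.5, 437.0 and 474.9 in Dot1l(fl/+), and 400.8 and 331.8 in those labelled Dot1l(fl/fl). Its Dot1l(fl/+) libraries reached above the controls, unlike those of En2, while both libraries labelled Dot1l(fl/fl) were below every other library. The log2 difference of Dot1l(fl/fl) from Dot1l(+/+) was -0.31 ± 0.10 (edgeR adjusted p = 0.281), -0.45 with the library labelled Dot1l(fl/fl) 1 left out and -0.18 with the library labelled Dot1l(fl/fl) 2 left out. En1 exceeded En2 per kilobase in every library, by 1.42, 1.44 and 1.27 times in Dot1l(+/+), 1.52, 1.54 and 1.79 times in Dot1l(fl/+), and 1.65 and 1.42 times in those labelled Dot1l(fl/fl). The ratio was higher in each Dot1l(fl/+) library than in each control, and 1 of the libraries labelled Dot1l(fl/fl) was back in the control range.

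Pbx3 (ENSMUSG00000038718, chr2:34171457-34373142, minus strand), the TALE member of the set, was at 428.7, 413.6 and 399.4 CPM in Dot1l(+/+), 433.8, 381.5 and 393.5 in Dot1l(fl/+), and 377.9 and 383.0 in those labelled Dot1l(fl/fl). The libraries labelled Dot1l(fl/fl) lay just below the controls, and the log2 difference was -0.12 ± 0.09 (edgeR adjusted p = 0.755, 95% interval from -19.5% to 5.0%). Dropping library 1 or 2 labelled Dot1l(fl/fl) gave -0.11 and -0.13.

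**Figure D2:**
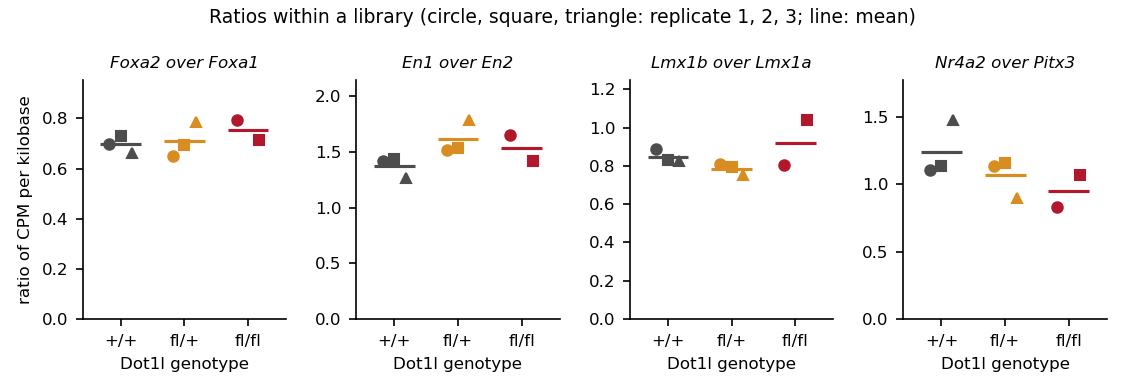
Ratio of 2 transcription factors within each library, both as CPM per kilobase of exon, by Dot1l genotype, with symbols for the replicates and a line for the mean. The ratio of En1 to En2 lies between 1.27 and 1.44 in Dot1l(+/+) and between 1.52 and 1.79 in Dot1l(fl/+); the ratio of Lmx1b to Lmx1a also has no overlap between those genotypes, and the other 2 ratios overlap.

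Read over the set, Dot1l(fl/fl) against Dot1l(+/+) left 0 of 9 members past the adjusted threshold, as it left 0.0% of the 17988 genes (0 by edgeR, with 1667 genes at an unadjusted p under 0.05). At the unadjusted p under 0.05 there were 5 members, all lower in Dot1l(fl/fl): Nr4a2, Lmx1a, Foxa1, En1 and En2. Over all genes 5.03% were lower at that level, and over the 2606 genes with a mean of at least 100 CPM, which all members exceed, 15.0% were. With the library labelled Dot1l(fl/fl) 1 left out the members at that level were 4 (Nr4a2, Lmx1a, En1 and En2), and with the library labelled Dot1l(fl/fl) 2 left out they were 3 (Nr4a2, Foxa1 and En2). The count also fell to 3 (Nr4a2, En1 and En2) without Dot1l(+/+) 3 and rose to 6, with Lmx1b added, without Dot1l(+/+) 2. Nr4a2 and En2 were at that level in each of these cases.

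The libraries labelled Dot1l(fl/fl) lay wholly below the controls for 6 members (Nr4a2, Foxa1, Foxa2, En1, En2 and Pbx3), against 11.6% of all genes and 20.5% of the genes with at least 100 CPM. All 9 members had a log2 difference below 0, as did 50.4% of all genes and 56.6% of the well expressed ones. The median member stood at -0.25, with a range from -0.47 to -0.01, and the median of all genes tested at -0.0031. Taken 1 library at a time, 6 and 7 of the 9 members were below the control range in those labelled Dot1l(fl/fl) 1 and 2, where 27.0% and 25.3% of all genes were. Summed over the members, the level was 3291.1, 3112.0 and 3299.6 CPM in Dot1l(+/+), 3038.3, 3025.2 and 2854.9 in Dot1l(fl/+), and 2754.1 and 2610.0 in those labelled Dot1l(fl/fl), so that the genotypes did not overlap in this sum. The choice of members used these same differences, and nothing is read from their direction beyond these values.

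**Figure D3:**
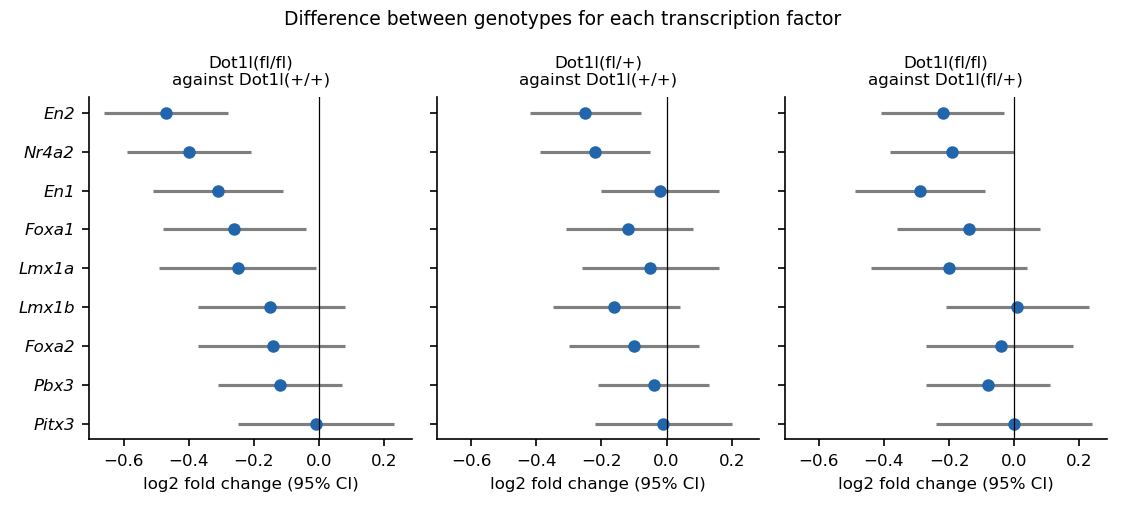
Log2 fold change (points) and 95% confidence interval (lines) of each transcription factor in the 3 comparisons of genotypes, from 1 edgeR fit of all libraries. In Dot1l(fl/fl) against Dot1l(+/+) the points run from -0.47 for En2 to -0.01 for Pitx3; comparisons with a genotype in common share its libraries.

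In the heterozygous neurons the comparison asks whether 1 floxed allele is enough to shift these transcripts. It shares the control libraries with the comparison above, so the values are only set side by side. En2 had a log2 difference of -0.25 ± 0.08 and Nr4a2 of -0.22 ± 0.08 (edgeR adjusted p = 0.94 for both), and both had all 3 Dot1l(fl/+) libraries below the controls. They were the only 2 members to do so, against 5.97% of all genes, and the only 2 at an unadjusted p under 0.05, against 2.86% of all genes on the lower side. The shares among genes with at least 100 CPM, as all members had, were not worked out for this comparison. In Dot1l(fl/fl) against Dot1l(+/+) the share lower at an unadjusted p under 0.05 was 15.0% among those, against 5.03% of all genes. The place of Nr4a2 rested on single libraries, since without Dot1l(fl/+) 3 it was at -0.14. There, as well as without Dot1l(+/+) 3, the 1 member left at that level was En2. Without Dot1l(+/+) 2 the members at that level were 3, with Lmx1b at -0.26 added. En1 at -0.02 ± 0.09 and Pitx3 at -0.01 ± 0.10 were level with the controls, and Lmx1b at -0.16, Foxa1 at -0.12, Foxa2 at -0.10, Lmx1a at -0.05 and Pbx3 at -0.04 lay between. All 9 members again had a value below 0, as did 51.0% of all genes. The median member was at -0.10, and 0 of 9 passed the adjusted threshold (0.0% of all genes by edgeR, with 903 at an unadjusted p under 0.05).

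Against the heterozygous libraries, Dot1l(fl/fl) differed most in En1, at -0.29 ± 0.10, then in En2 at -0.22 ± 0.09, Lmx1a at -0.20 ± 0.12 and Nr4a2 at -0.19 ± 0.09 (edgeR adjusted p = 0.998 for each). Lmx1a, En1 and En2 had both libraries labelled Dot1l(fl/fl) below the 3 Dot1l(fl/+) libraries, against 9.57% of all genes. En1 and En2 were at an unadjusted p under 0.05, against 2.16% of all genes on the lower side. Here too the shares among genes with at least 100 CPM were not worked out. With the library labelled Dot1l(fl/fl) 2 left out, En1 was at -0.16 and Lmx1a at -0.045, no longer the larger differences, while Nr4a2 at -0.22 and En2 at -0.20 were, and the member at an unadjusted p under 0.05 was then Nr4a2 alone. With library 1 of that genotype dropped, En1 was at -0.44 and Lmx1a at -0.38, and they and En2 were the 3 members at that level. The 2 members of the fit of all libraries also became 1 (En1) without Dot1l(fl/+) 1 or 2, and 4 (Nr4a2, Foxa1, En1 and En2) without Dot1l(fl/+) 3. Pitx3 at 0.00 ± 0.12 and Lmx1b at 0.01 ± 0.11 did not separate the genotypes. A value below 0 was found for 8 of the 9 members and 49.8% of all genes. The adjusted threshold was passed by 0 of 9 members and 0.0% of all genes by edgeR, with 723 at an unadjusted p under 0.05. This comparison is also the direct test of whether the distance from the controls differs between the floxed genotypes, and none of the 9 members passed it.

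The shape of the values over the 8 libraries separates the members further. When each gene's mean over the libraries was removed from its log2 CPM, Nr4a2 and En2 had the most similar profiles within the set, 0.06 apart as a root mean square difference, and Foxa1 was 0.064 from Nr4a2. Pitx3 was the member least like Nr4a2, at 0.237. Nr4a2, En2 and Foxa1 each had their lowest heterozygous level in Dot1l(fl/+) 3. They were near equal in those labelled Dot1l(fl/fl), which differed by 0.07, -0.05 and 0.01 on the log2 scale. Lmx1b had both traits too, with a difference of 0.05, and its nearest member was Foxa1, at 0.111. Lmx1a, Pitx3 and En1 formed the other pattern, with the library labelled Dot1l(fl/fl) 2 below the library labelled Dot1l(fl/fl) 1 by log2 differences of -0.33, -0.30 and -0.27. Points in such a profile share library depth and cell make-up, and the distances are a description without a test.

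**Figure D4:**
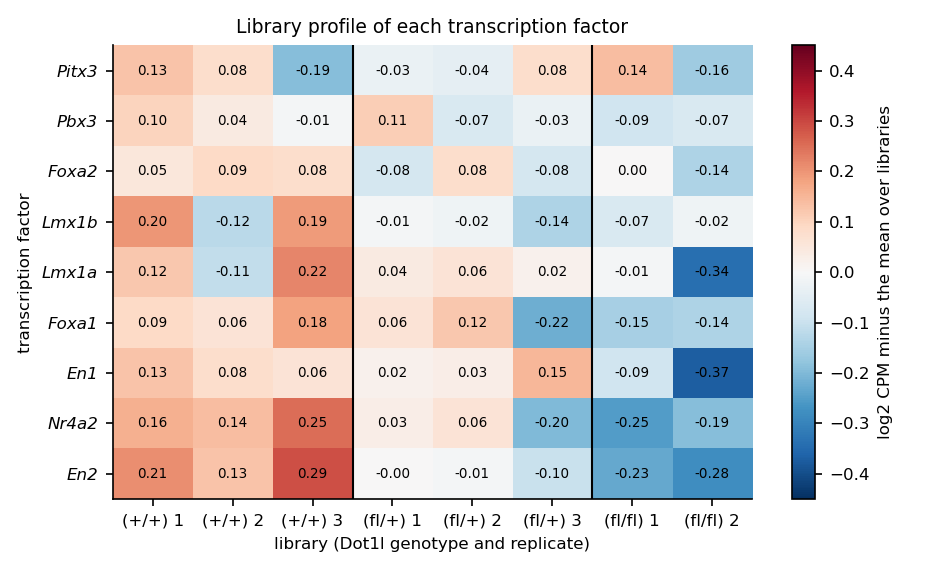
Log2 CPM of each transcription factor in each of 8 libraries after its mean over the libraries was subtracted, with blue below and red above the mean and the value printed in each cell. En2 and Nr4a2 run from above 0 in the controls to below 0 in those labelled Dot1l(fl/fl), while Pitx3 has both signs within each genotype.

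Outside the set, the genes with the most similar profiles among 9951 genes with a mean of at least 10 CPM were as follows. Eif4g3, a translation initiation factor, and Irf2bpl were nearest to Nr4a2, at 0.037 and 0.039. Larp1, an RNA-binding protein of translation control, and Whrn, a scaffold protein, were nearest to En2, at 0.024 and 0.05. Gnaq, a G protein subunit, was 0.019 from Foxa1, the closest match of any member, followed by Pogk at 0.044. Aplp1, a relative of the amyloid precursor protein, and the kinase gene Gsk3a were nearest to Pitx3, at 0.044 and 0.046. For Lmx1a they were Tmem151b and Adcyap1r1, for Lmx1b Gcn1l1 and Klhdc10, for Foxa2 Snn and Scarb2, for En1 Zbtb12 and Fam219a, and for Pbx3 Arhgap39 and Sgpl1, at distances from 0.034 to 0.061. None of these genes is another member.

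The start-site regions of 4 members are printed. Nr4a2, En1 and Foxa1 are 3 of the 6 whose Dot1l(fl/fl) libraries lay below the controls, and those of Pitx3 overlapped. The choice used those same differences, and a link between sequence and difference was not tested. The regions are 300 bases each, 250 before the RefSeq start site and 50 from it on. They are on GRCm38.p6, written 5′ to 3′ on the strand of the gene. The coordinates are chr2:57123954-57124253 (minus strand) for Nr4a2, chr1:120602237-120602536 (plus strand) for En1, chr12:57546062-57546361 (minus strand) for Foxa1, and chr19:46148276-46148575 (minus strand) for Pitx3. Capitals mark matches to the motifs searched.
Nr4a2: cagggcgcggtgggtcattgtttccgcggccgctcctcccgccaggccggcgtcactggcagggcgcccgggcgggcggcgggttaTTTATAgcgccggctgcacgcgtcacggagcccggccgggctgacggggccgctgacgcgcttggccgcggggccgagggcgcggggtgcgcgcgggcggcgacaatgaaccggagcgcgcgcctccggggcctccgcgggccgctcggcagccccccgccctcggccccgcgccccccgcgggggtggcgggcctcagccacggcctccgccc
En1: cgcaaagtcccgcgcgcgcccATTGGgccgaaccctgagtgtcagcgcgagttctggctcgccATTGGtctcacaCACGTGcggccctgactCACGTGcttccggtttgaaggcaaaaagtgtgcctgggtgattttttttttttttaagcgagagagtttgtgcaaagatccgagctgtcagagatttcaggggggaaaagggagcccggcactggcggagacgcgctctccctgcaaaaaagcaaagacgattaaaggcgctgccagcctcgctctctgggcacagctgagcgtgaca
Foxa1: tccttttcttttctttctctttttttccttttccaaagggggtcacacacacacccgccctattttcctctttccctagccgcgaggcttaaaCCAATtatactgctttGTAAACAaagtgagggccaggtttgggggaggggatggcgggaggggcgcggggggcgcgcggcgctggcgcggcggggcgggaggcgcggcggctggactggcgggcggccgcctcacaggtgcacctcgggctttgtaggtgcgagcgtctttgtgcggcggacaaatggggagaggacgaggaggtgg
Pitx3: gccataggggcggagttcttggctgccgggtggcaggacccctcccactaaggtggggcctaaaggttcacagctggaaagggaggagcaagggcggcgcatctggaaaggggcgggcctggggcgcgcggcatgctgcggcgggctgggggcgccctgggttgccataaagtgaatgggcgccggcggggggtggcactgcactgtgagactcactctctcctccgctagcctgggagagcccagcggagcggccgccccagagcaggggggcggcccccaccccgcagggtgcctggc
The motifs, searched on both strands, were the NR4A response element AAAGGTCA, the forkhead motif TGTTTAC, the homeodomain motif TAATTA, the PITX motif TAATCC, the PBX motif TGATTGA, the cyclic AMP response element TGACGTCA, the E-box CACGTG, the CCAAT box and the TATA box TATAAA. The Foxa1 start-site region held the forkhead motif, as GTAAACA from -141 to -135 (the start site is 0), and a CCAAT box from -157 to -153; the forkhead motif was in 3.65% of 32851 such regions and the CCAAT box in 37.4%. The En1 region held the E-box at -175 to -170 and again at -158 to -153, a motif found in 7.15% of regions, and 2 CCAAT boxes in reverse. The Nr4a2 region held TATAAA in reverse at -164 to -159, present in 13.6% of regions. Foxa2, another of the 6, has 3 such regions in RefSeq, with a GC content of 54.3%, 64.0% and 51.7%; the first held a CCAAT box in reverse and the third TATAAA in reverse. In the Pitx3 region none of these letters was found, and no matches overlapped each other. The region of Lmx1a, not printed, held no match either, while that of Lmx1b held the CCAAT box at -236 to -232 and at -84 to -80. The Nr4a2 region had a GC content of 81.7% and 52 CpG sites, against medians of 52.7% and 7 over all regions, with 71.7% and 20 in Pitx3, 62.3% and 26 in Foxa1, and 57.0% and 23 in En1.

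The genes around the set were read from lists of partners, targets, relatives and neighbours in the same programme. Of 14 genes listed as targets of NR4A2 or PITX3, 9 were lower and 1 higher in Dot1l(fl/fl) against Dot1l(+/+) at an unadjusted p under 0.05. Over all genes the shares were 5.03% and 4.24%. Of genes with at least 100 CPM, as most targets had, 15.0% were lower. The adjusted threshold was passed by 0 of the 14, and their median log2 difference was -0.26. The lower targets were 8 with the library labelled Dot1l(fl/fl) 1 left out and 5 with the library labelled Dot1l(fl/fl) 2 left out. Th, the rate-limiting enzyme of dopamine synthesis, was at 1047.0, 951.4 and 974.2 CPM in Dot1l(+/+), 940.3, 964.9 and 914.9 in Dot1l(fl/+), and 859.9 and 649.2 in those labelled Dot1l(fl/fl) (log2 difference -0.39, edgeR adjusted p = 0.206). Its difference was -0.61 (edgeR adjusted p = 0.00422) when library 1 labelled Dot1l(fl/fl) was dropped, and -0.21 (edgeR adjusted p = 0.375) when library 2 was. The target on the higher side was Bdnf, a neurotrophin, at 19.1, 16.8 and 19.7 CPM in Dot1l(+/+), 19.9, 23.4 and 16.0 in Dot1l(fl/+), and 31.6 and 33.0 in those labelled Dot1l(fl/fl), above every other library (log2 difference 0.80, edgeR adjusted p = 0.205, and 0.83 and 0.77 when library 1 or 2 labelled Dot1l(fl/fl) was dropped). Of 10 partners of NR4A2 and PITX3, 2 were lower at an unadjusted p under 0.05, against 5.03% of all genes. The median of the 10 was -0.19. The corepressor gene Ncor1 was at -0.29, and at -0.19 and -0.39 when library 1 or 2 labelled Dot1l(fl/fl) was dropped. Cdkn1c, which encodes a cell cycle inhibitor that binds NR4A2, was at -0.02. It is counted among both the partners and the targets.

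Of the relatives and TALE partners, 12 of 13 were tested, and their median of 0.05 was on the other side of 0 from that of the members. Nr4a1, the immediate early relative of Nr4a2, was at 43.0, 50.4 and 17.7 CPM in Dot1l(+/+), 34.6, 31.8 and 22.2 in Dot1l(fl/+), and 50.7 and 71.5 in those labelled Dot1l(fl/fl), a log2 difference of 0.72 ± 0.27 (edgeR adjusted p = 0.363) with wide spread in the controls. It was 0.95 and 0.46 when library 1 or 2 labelled Dot1l(fl/fl) was dropped.

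Of 16 other transcription factors of midbrain DA neurons, 15 had a log2 difference below 0 in Dot1l(fl/fl) against Dot1l(+/+). At an unadjusted p under 0.05, 6 were lower. The shares were 50.4% and 5.03% of all genes, and 56.6% and 15.0% of those with at least 100 CPM. The median of the 16 was -0.24 and that of the members -0.25. The 6 became 2 with the library labelled Dot1l(fl/fl) 1 left out and 9 with the library labelled Dot1l(fl/fl) 2 left out. Tcf4 and Myt1l, a basic helix-loop-helix and a zinc finger factor of neurons, were both at -0.38 (edgeR adjusted p = 0.242 and 0.268), and Ebf3 was at -0.22 (edgeR adjusted p = 0.462). Of the 17 floor plate and progenitor factors 13 were tested, and 2 were lower at an unadjusted p under 0.05, against 5.03% of all genes. The median of the 13 was -0.14. Their median was -0.02 and -0.48 when library 1 or 2 labelled Dot1l(fl/fl) was dropped. The 2 lower genes were Pax5, which like the Engrailed genes belongs to the midbrain and hindbrain boundary, and Wnt5a, a secreted signal of the DA lineage. Pax5 was at 25.0, 21.8 and 25.3 CPM in Dot1l(+/+), 18.2, 20.1 and 14.0 in Dot1l(fl/+), and 12.1 and 13.0 in those labelled Dot1l(fl/fl). As for En2, the 3 genotypes did not overlap, and the log2 difference of Dot1l(fl/fl) was -0.94 ± 0.22 (edgeR adjusted p = 0.173), or -0.89 and -0.99 when library 1 or 2 of that genotype was dropped. Wnt5a was at -0.37 (edgeR adjusted p = 0.266). With all libraries, none of the genes in the lists passed the adjusted threshold in any of the 3 comparisons. In Dot1l(fl/fl) against Dot1l(+/+), the values of some list genes rested on 1 library. The target Aldh1a1, an aldehyde dehydrogenase gene, was at -0.38 with all libraries (edgeR adjusted p = 0.299). It was at -0.71 and -0.12 when library 1 or 2 labelled Dot1l(fl/fl) was dropped. Pitx1, of the relatives and TALE partners, was at -0.13 with all libraries (edgeR adjusted p = 0.983). Its sign turned, to 0.68 and -2.10, when library 1 or 2 labelled Dot1l(fl/fl) was dropped. Aldh1a1 and Pitx1 were named after these values were seen.

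**Figure D5:**
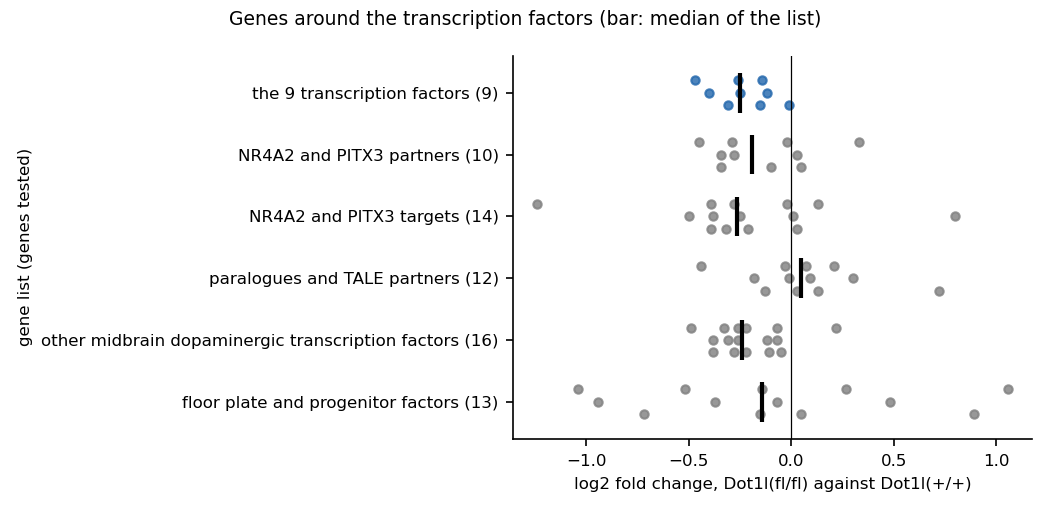
Log2 fold change of Dot1l(fl/fl) against Dot1l(+/+) for each gene tested in the set and in the lists around it, with a bar at the median of each list. The medians are -0.25 for the 9 transcription factors, -0.19 for partners, -0.26 for targets, 0.05 for paralogues and TALE partners, -0.24 for other DA transcription factors and -0.14 for floor plate and progenitor factors.

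Markers of cell types moved with the genotypes in part, and their part in the values of the members was not tested. The summed level of 10 DA neuron markers, which include Nr4a2, Pitx3 and Lmx1b, was between 5307.6 and 6167.5 CPM in Dot1l(+/+). It was between 5274.5 and 5762.5 in Dot1l(fl/+), and 5169.1 and 4266.9 in those labelled Dot1l(fl/fl) 1 and 2. Of the 10, 5 were below every control in both of the latter, Nr4a2 among them, and none was above. The share below was 11.6% over all genes and 20.5% over genes with at least 100 CPM. The sum of 6 GABAergic neuron markers was between 203.5 and 224.7 CPM in Dot1l(+/+) and between 235.0 and 263.9 in those labelled Dot1l(fl/fl). Of these, 1 of the 6, the transporter gene Slc32a1, was above every control in both. Gad1, at 5.25 and 7.05 CPM, was not, and Gata2 was at or near 0 throughout. Taken 1 library at a time, 28.6% and 27.1% of all genes were above the control range in those labelled Dot1l(fl/fl) 1 and 2. The share of all genes above every control in both at once is not given here. Markers named as above in both are therefore listed without it. The sum of 6 glutamatergic markers, from 185.3 to 220.1 in Dot1l(+/+) and from 203.5 to 215.8 in those labelled Dot1l(fl/fl), overlapped, as did those of 10 progenitor markers, from 61.5 to 101.5 and from 55.4 to 93.1, and of 6 microglial markers, from 93.3 to 115.1 and from 101.8 to 122.7. Slc17a8 of the glutamatergic list was above every control in both libraries labelled Dot1l(fl/fl). Mki67 of the progenitor list was below every control in both, as were 11.6% of all genes. Blood markers summed to between 13.7 and 18.1 CPM in Dot1l(+/+) and to 16.7 and 33.4 in those labelled Dot1l(fl/fl) 1 and 2. Hba-a1 of that list was above every control in both of the latter. Endothelial markers summed to between 4.9 and 8.32 in Dot1l(+/+) and between 9.14 and 10.8 in those labelled Dot1l(fl/fl). The Dot1l(fl/+) sums, from 3.8 to 14.3, spanned both ranges. Of the 5 endothelial markers, 0 were above every control in both libraries labelled Dot1l(fl/fl). The serotonergic markers summed to at most 2.7 CPM in any library, the oculomotor or cholinergic markers to at most 9.18, with 2 of the 6 at 0 in every library, Phox2a among them, and 2, Chat and Slc5a7, above every control in both libraries labelled Dot1l(fl/fl), and the oligodendrocyte precursor markers to at most 14.1.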

How the data were processed

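RNA-seq counts of 8 libraries of sorted DA neurons were used: 3 Dot1l(+/+), 3 Dot1l(fl/+) and 2 Dot1l(fl/fl). The values the authors deposited are raw whole-number counts of reads by Ensembl gene, 1 file a library, made with a strand-preserving library kit and mapped to GRCm38.p4. The submitters' processing notes name bcl2fastq 2.17, Trimmomatic 0.30 and DESeq2 1.10.1; the aligner, the counting program and its strand setting are not given in the sources used here. Also deposited by the authors were tables of their comparisons that hold a mean signal (normalised counts) and columns of fold changes, errors, statistics and p-values; only the gene symbols were taken from them, and none of these values was used. Of the identifiers, 99.1% were in GENCODE M21 (GRCm38), which gave positions and exon lengths. Promoters were those of RefSeq on GRCm38.p6, which held an entry for 7 of the 9 members, those other than En2 and Pbx3.

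Groups came from the sample titles. The test was edgeR's quasi-likelihood F test (4.0.16, R 4.3.3) with TMM scaling and the filterByExpr filter, all 3 genotypes in 1 fit without covariates, and Benjamini-Hochberg adjustment over 17988 genes at a threshold of 0.05. Library levels are CPM with TMM factors, and profiles used log2 CPM with a prior count of 2. Intervals are 95% confidence intervals. Counting errors are for counting alone, as reads carry no molecular identifiers. Per the study's methods 1 embryo of each genotype was taken from a litter, but no source used here ties a replicate number to a set of litters, and the fit was not paired; deviations of libraries with the same number correlated between -0.031 and 0.045.

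Some items of the lists are not reported here. The members and the gene lists were chosen with earlier results of these data known, and the motifs after the values had been seen. Named genes were all members, Dot1l, from each list the 2 with the smallest p and the 1 with the highest level per kilobase, and for each member the 2 genes with the most similar profile; markers and Slc32a1 were named after their values were seen. The fit was tested on simulated counts. Alternatives were RLE and upper-quartile factors, DESeq2 1.42.0, no filter or a stricter one (mean count 50), a fit of only the 2 genotypes compared, a block for the replicate number, a correction of exon length and GC content by splines with 4 degrees of freedom, these last both together, each library left out, and, chosen after seeing the data, a robust edgeR fit and list genes with each Dot1l(fl/fl) library left out.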

Additional observations from a re-analysis of the deposited data

How the results depend on the processing

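In Dot1l(fl/fl) against Dot1l(+/+), the 0 genes and 0 members past the threshold by edgeR became 106 genes and 2 members (Nr4a2 and En2) with no filter, 214 genes and 3 members (Nr4a2, En1 and En2) with DESeq2, 8 genes and 1 member (En2) with the robust edgeR fit, and 2 genes and 0 members with a mean count of at least 50; the cause was not tested. Leaving out 1 library gave between 0 and 75 genes and between 0 and 1 members: 75 genes and En2 without Dot1l(+/+) 2, 50 genes with the library labelled Dot1l(fl/fl) 2 left out and 4 with the library labelled Dot1l(fl/fl) 1 left out; with 1 library left in a group, it is assumed to vary like the others. For Dot1l(fl/+) against Dot1l(+/+), no filter gave 11 genes and leaving out a library between 0 and 0. For Dot1l(fl/fl) against Dot1l(fl/+), no filter gave 14, DESeq2 gave 1, and leaving out a library between 0 and 7, the 7 without either library labelled Dot1l(fl/fl). In these 2 comparisons 0 members were called under any alternative.

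Genotypes were matched within litters before pooling, but whether the replicate numbers mark the same litters is not known, and libraries of the same number did not deviate together. With the replicate block there were 6 genes and 0 members in Dot1l(fl/fl) against Dot1l(+/+) and 4 genes in Dot1l(fl/fl) against Dot1l(fl/+); with the replicate block and the length and GC offset together there were 17 genes, with 2 members (Nr4a2 at -0.52, edgeR adjusted p = 0.0064, and En2 at -0.51, edgeR adjusted p = 0.0129), and 9 genes. With the length and GC offset, alone and with the block, Pitx3 in Dot1l(fl/+) against Dot1l(+/+) was at 0.059 and 0.056 and Pbx3 at 0.019 and 0.016; with both, Lmx1b in Dot1l(fl/fl) against Dot1l(fl/+) was at -0.014.

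Over the alternatives that kept all libraries, Nr4a2 in Dot1l(fl/fl) against Dot1l(+/+) ranged from -0.52 to -0.40 and En2 from -0.51 to -0.46, and their edgeR or DESeq2 adjusted p over all alternatives from 0.00239 to 0.674 and from 1.87e-05 to 0.671. All 9 members kept a value below 0 there in each of these alternatives. Leaving out 1 library turned the sign of Pitx3 (range -0.17 to 0.13) in that comparison; of Pitx3 (-0.10 to 0.057), Lmx1a (-0.14 to 0.026) and En1 (-0.063 to 0.006) in Dot1l(fl/+) against Dot1l(+/+); and of Pitx3 (-0.17 to 0.14), Lmx1b (-0.03 to 0.035) and Foxa2 (-0.13 to 0.028) in Dot1l(fl/fl) against Dot1l(fl/+). Counting error was at most 2.37% for a member, so the precision is set mainly by the spread between libraries, of which only 2 are labelled Dot1l(fl/fl), 1 of them at a control level of Dot1l.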
